A study of Mus musculus with 6 samples.

Results

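The small leucine-rich proteoglycans are secreted matrix proteins built on a core of leucine-rich repeats, and 8 of their genes, Lum, Dcn, Bgn, Fmod, Ogn, Omd, Prelp and Aspn, were followed in mouse livers made to express Sonic Hedgehog (SHH). The genes were chosen by name, with earlier results of these data known. All 8 were measured among 22180 genes that had a probe set naming that gene alone, and where a gene had several such probe sets, the brightest on average stood for it. Total RNA from whole liver of 6 male C57BL/6 mice kept in a specific-pathogen-free room was hybridised to 1 Affymetrix array per mouse. According to the labels, mice 13, 21 and 6 had livers expressing GFP, a fluorescent protein used as control, and mice 26, 28 and 31 had livers expressing SHH, the ligand that starts Hedgehog signalling, with no further treatment. The design text gives hydrodynamics-based transfection, in which DNA injected at high volume and speed enters hepatocytes, as the source of the transgene, and hepatic fibrosis as the question. The sources used here give neither the promoter of the transgene nor the age of the mice nor the time after injection. Signals are log2 values, and those of single livers are listed in the order of mice 13, 21 and 6 for GFP and 26, 28 and 31 for SHH.

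Decorin, biglycan and asporin (Dcn, Bgn, Aspn) form class I of the family, lumican, fibromodulin, osteomodulin and prolargin (Lum, Fmod, Omd, Prelp) class II, and mimecan (Ogn) belongs to class III. The core proteins lie along collagen fibrils and set their thickness and spacing, and several carry chondroitin, dermatan or keratan sulfate chains. Decorin and biglycan also bind TGF-beta, and soluble biglycan is a ligand of Toll-like receptors. In liver, decorin and lumican are products of stellate cells and portal fibroblasts, the cells that lay down scar matrix.

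The family lies in blocks in the genome. In the RefSeq gene order, Dcn, Lum, Kera and Epyc follow each other, as do Ecm2, Aspn, Omd and Ogn, and Optc, Prelp and Fmod, while Bgn stands apart on the X chromosome. RefSeq upstream sequence (GRCm38.p6) was matched for 6 of the 8 genes, and Lum and Dcn are named only. Those of Omd and Ogn are shown because these neighbours gave opposite mean differences, though both were negative without SHH 26. That of Bgn is shown because Bgn is a bright member outside these blocks. Each is the 250 bases before the gene's start, 5′ to 3′ on the gene's own strand, which is the plus strand for all 3, at chr13:49582212-49582461 for Omd, chr13:49607765-49608014 for Ogn and chrX:73483351-73483600 for Bgn. Capitals mark a TATA box (TATAAA) or an Sp1 GC box (GGGCGG) on either strand.
Omd: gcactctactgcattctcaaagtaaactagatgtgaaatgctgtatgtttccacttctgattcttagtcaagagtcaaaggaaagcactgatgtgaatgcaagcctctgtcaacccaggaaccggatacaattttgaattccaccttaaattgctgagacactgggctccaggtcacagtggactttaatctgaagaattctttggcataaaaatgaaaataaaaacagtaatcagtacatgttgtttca
Ogn: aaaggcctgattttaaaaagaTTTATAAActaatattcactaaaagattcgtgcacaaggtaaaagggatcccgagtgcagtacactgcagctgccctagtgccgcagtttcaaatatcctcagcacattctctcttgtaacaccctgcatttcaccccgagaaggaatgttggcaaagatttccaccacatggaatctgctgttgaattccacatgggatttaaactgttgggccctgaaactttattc
Bgn: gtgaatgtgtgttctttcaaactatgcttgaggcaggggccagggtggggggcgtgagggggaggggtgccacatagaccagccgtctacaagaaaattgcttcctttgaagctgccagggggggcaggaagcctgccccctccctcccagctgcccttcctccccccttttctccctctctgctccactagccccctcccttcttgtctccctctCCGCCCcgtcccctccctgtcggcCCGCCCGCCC
The 3 GC boxes of Bgn began 34, 10 and 6 bases before the start, and the last 2 share bases. The TATA matches of Ogn, on opposite strands and sharing bases, began 229 and 227 bases before the start. The Omd window held no match to any motif searched. These are descriptions of letters and not of binding. The Gli site (GACCACCCA), the AP-1 site (TGANTCA) and the STAT site (TTCNNNGAA) were searched on both strands too, and 0 of the 6 windows held any of them. For comparison, 32851 RefSeq windows of the same length were searched, with 1 chromosome left out. Of these, 0.225% held the Gli letters, 6.75% the AP-1 letters, 7.02% the STAT letters, 12.4% the TATA box and 32.7% the GC box. The TATA box was in 2 of the 6 windows, those of Aspn and Ogn, and the GC box in 1, that of Bgn. The 6 windows ranged from 30.0% G and C in Aspn to 64.4% in Bgn, against a median of 52.4% over those 32851 windows.

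By correlation and distribution of signals the arrays were alike. Across all 41345 probe sets, any 2 arrays of the same group had a Pearson correlation of 0.975 to 0.979, and any 2 of different groups one of 0.971 to 0.981. Median log2 signals ran from 4.32 to 4.40 and upper quartiles from 5.90 to 5.98. The array weights of limma, which count an array less where its genes vary more, differed. They ran from 0.62 in SHH 31 to 1.60 in GFP 6, and the main comparison did not use them. Of 8 hepatocyte genes, 7 lay above the upper quartile of every array. Shh itself read 3.43 to 3.86 in GFP livers and 4.28 to 4.63 in SHH livers, with no overlap and a difference of 0.84 on the log2 scale that did not pass over all genes (limma, adjusted p = 0.356).

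Of the 8 genes, Lum was the 1 whose SHH and GFP livers did not overlap, and it was higher in SHH livers. Omd was lower in SHH livers 28 and 31 and at the GFP level in SHH 26, while the highest Ogn value was that of SHH 26. Dcn was slightly higher in SHH livers, and Bgn, Prelp, Fmod and Aspn gave differences of at most 0.12 in size. None of the 8 passed the threshold, an adjusted p under 0.05 over all 22180 genes. In that comparison limma called 0% of genes higher and 0% lower, so the count of 0 members equals the background. At an unadjusted p under 0.05, 1 member was higher (Lum) and 1 lower (Omd), where the shares of all genes were 3.33% and 4.01%. Groups did not overlap for 1 of 8 members, with SHH above, and for 5.26% of all genes with SHH above and 7.25% with SHH below. Mean signals were higher in SHH livers for 5 members and lower for 3, against 43.8% and 56.2% of all genes. The median difference of the 8 was 0.10, against -0.03 over all genes, and it was 0.01 without SHH 31.

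**Figure D1:**
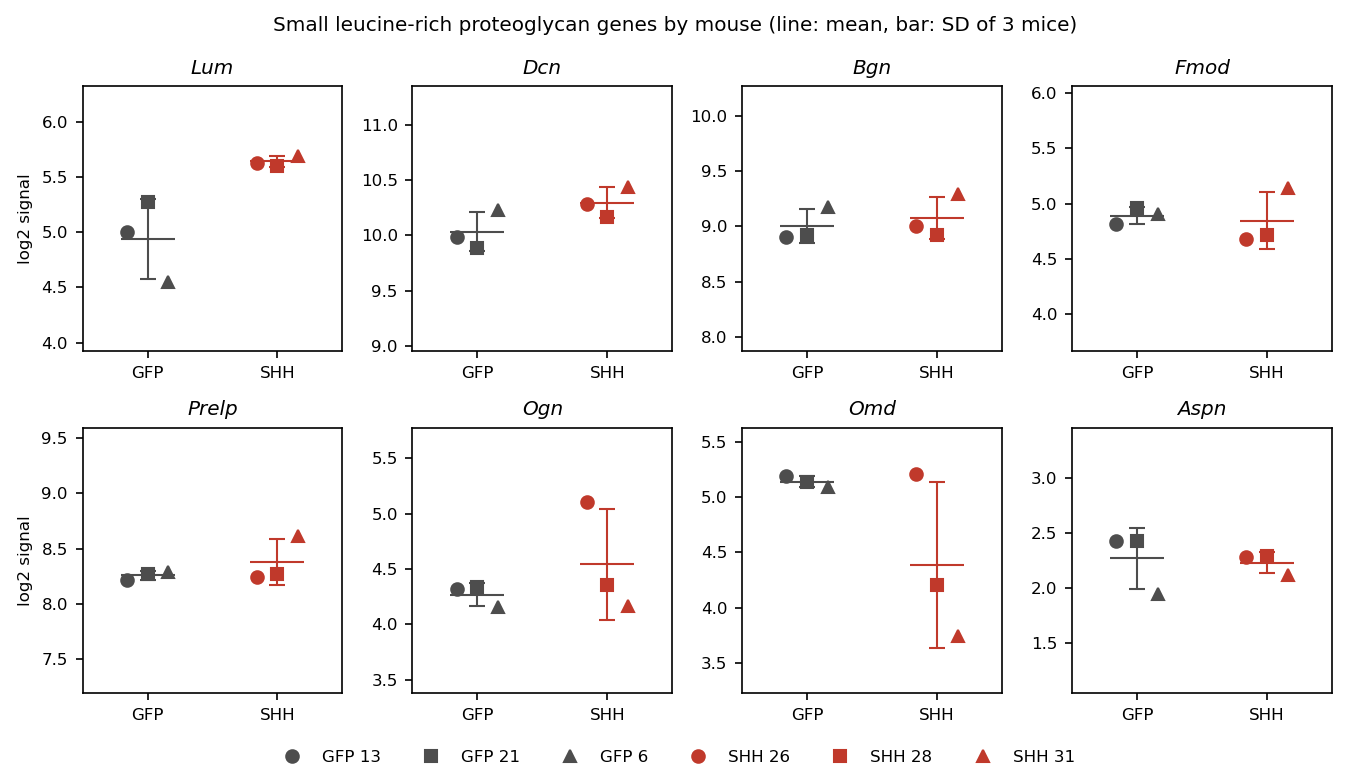
Log2 signal of each of the 8 proteoglycan genes (vertical axis, all panels spanning the same number of log2 units) in 3 GFP livers (grey) and 3 SHH livers (red), 1 point per mouse, with the group mean as a line and the SD of 3 mice as a bar. The 3 Lum points of the SHH group lie above all GFP points, Omd is split within the SHH group, and Ogn has 1 high point, SHH 26.

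Lumican, encoded by Lum, is a keratan sulfate proteoglycan that binds fibrillar collagen. Its log2 signal was 5.00, 5.27 and 4.55 in the GFP livers and 5.63, 5.60 and 5.69 in the SHH livers. All SHH livers stood above all GFP livers, with 0.33 between the nearest values, and the SHH livers lay close together. The means were 4.94 ± 0.36 (SD, n = 3) and 5.64 ± 0.05 (SD, n = 3), so the spread was wider among controls, where GFP 6 was lowest. The difference of 0.70 (SE 0.18, 95% interval 0.29 to 1.11), or 1.62-fold, had an unadjusted p of 0.00385 in limma and an adjusted p = 0.470. It was 0.50 without GFP 6 and 0.86 without GFP 21, the lowest and highest values with 1 mouse left out. All 6 Lum values lay above their arrays' medians and below their upper quartiles, so it was a middling signal.

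The other class II genes did not share this pattern. Osteomodulin, encoded by Omd, is a keratan sulfate proteoglycan best known from bone. Omd read 5.19, 5.14 and 5.09 in the GFP livers and 5.21, 4.20 and 3.75 in the SHH livers. GFP livers spanned 0.10 log2 units and SHH livers 1.46, since SHH 26 was the highest of all 6 and the other 2 were below every GFP liver. The mean difference was -0.75 (SE 0.31, 95% interval -1.46 to -0.05; 1.68-fold lower), with adjusted p = 0.667 in limma. Without SHH 26 it was -1.16 with adjusted p = 0.0601, and over all settings tried the adjusted p of Omd ran from 0.0601 to 0.911.

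Fibromodulin, encoded by Fmod, guides collagen cross-linking and fibril growth. It read 4.81, 4.96 and 4.91 in the GFP livers and 4.68, 4.71 and 5.14 in the SHH livers. SHH 31 was the highest and the other SHH livers the lowest, so the groups overlapped, with a difference of -0.05 (95% interval -0.39 to 0.30; limma, adjusted p = 0.967). A dimmer Fmod probe set read 3.78 to 3.99 in GFP livers and 3.94 to 4.21 in SHH livers, a difference of 0.18. With the mean of both the sign turned, to 0.06. The annotation used does not say which strand the dimmer probe sets of Fmod, Prelp and Bgn read, so they may not measure the same transcript. Prolargin, encoded by Prelp, anchors collagen to basement membranes through heparan sulfate. Prelp read 8.21, 8.27 and 8.29 in the GFP livers, a spread of 0.08, and 8.24, 8.27 and 8.61 in the SHH livers. SHH 31 was the 1 liver above the GFP range. The difference of 0.12 (95% interval -0.20 to 0.43; limma, adjusted p = 0.903) became -0.00 without SHH 31, and the dimmer Prelp probe set differed by 0.02.

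Among the class I genes, decorin (Dcn), a binder of collagen and TGF-beta with a single glycosaminoglycan chain, lay above the upper quartile of every array. Dcn read 9.99, 9.89 and 10.23 in the GFP livers and 10.29, 10.17 and 10.44 in the SHH livers. SHH 26 and SHH 31 stood above all GFP livers, while SHH 28 was below GFP 6. The means were 10.03 ± 0.17 (SD, n = 3) and 10.30 ± 0.14 (SD, n = 3), a difference of 0.26 (SE 0.14, 95% interval -0.06 to 0.58; limma, adjusted p = 0.748). It kept its sign in all 15 alternative settings, between 0.19 and 0.36. Dcn has a single probe set, so settings that changed only the probe set, the limma prior or the genes tested could not move its difference.

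Biglycan (Bgn), the closest relative of decorin, read 8.91, 8.92 and 9.18 in the GFP livers and 9.01, 8.93 and 9.29 in the SHH livers. The groups overlapped through GFP 6, with a difference of 0.07 (95% interval -0.26 to 0.41; limma, adjusted p = 0.945) that was -0.03 without SHH 31. A second Bgn probe set, at 6.20 to 6.34 in GFP livers and 6.14 to 6.57 in SHH livers, differed by 0.06. Asporin (Aspn), which lacks the glycosaminoglycan attachment site of its class, read 2.43, 2.43 and 1.95 in GFP livers and 2.28, 2.29 and 2.12 in SHH livers. All 6 Aspn values lay below the lower quartile of their arrays (3.13 to 3.22), and the difference was -0.04 (95% interval -0.40 to 0.32; limma, adjusted p = 0.972).

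Mimecan (Ogn), the class III member, read 4.32, 4.34 and 4.15 in the GFP livers and 5.11, 4.36 and 4.16 in the SHH livers. SHH 26 stood above every other liver, while SHH 31 lay inside the GFP range and SHH 28 just above it. The difference of 0.27 (95% interval -0.24 to 0.79; limma, adjusted p = 0.849) was -0.01 without SHH 26. That liver also had the highest Omd, and it had the lowest mean of 8 neutrophil marker genes in the SHH group, 3.87 against 5.00 and 4.82 in SHH 28 and SHH 31 and 3.44 to 3.76 in GFP livers. The part of those cells in the Omd and Ogn values was not tested.

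**Figure D2:**
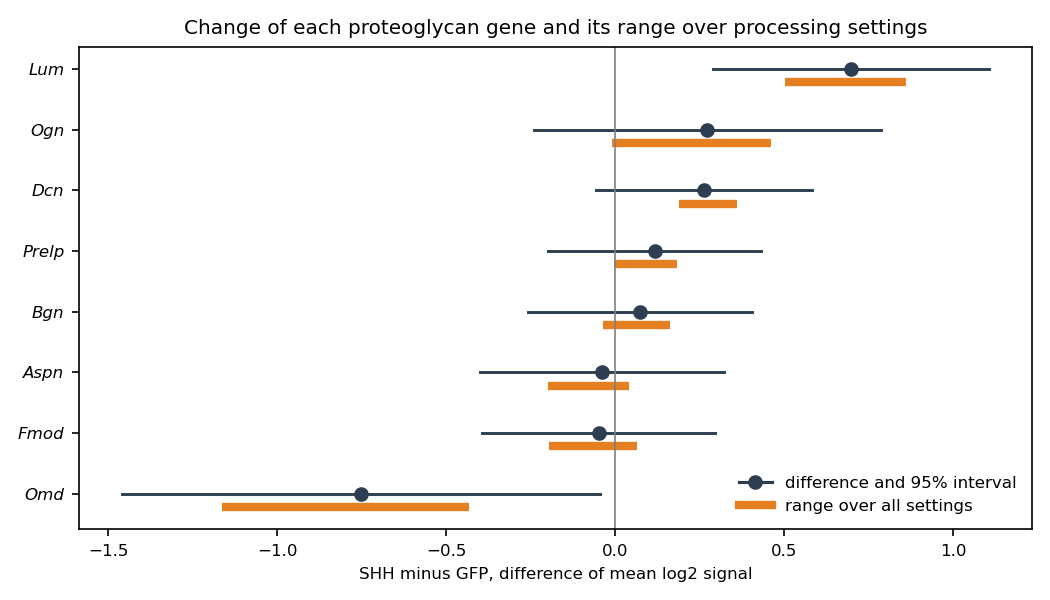
Difference of mean log2 signal between SHH and GFP livers (horizontal axis) for the 8 genes, with its 95% interval from limma as a thin line and the lowest and highest value over the main and alternative settings, mice left out included, as an orange bar. The orange bars of Lum, Dcn and Omd stay on 1 side of 0, and those of the other 5 genes cross it. The dimmer Fmod probe set, with a difference of 0.18, lies outside the orange bar of Fmod.

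Over the reported values and up to 15 alternatives for each gene, 3 of the 8 genes kept 1 direction: Lum from 0.50 to 0.86, Dcn from 0.19 to 0.36 and Omd from -1.16 to -0.43. The other 5 turned sign in at least 1 setting. Lum, Dcn and Omd have a single probe set each, so settings that changed only the probe set, the limma prior or the genes tested could not move them. Bgn, Fmod and Prelp also have a dimmer probe set and could move when the choice of probe set changed. Testing every probe set on its own could not move any gene, since each was followed at its main probe set. The dimmer Fmod probe set, with a difference of 0.18, thus lies outside the Fmod values counted here. The highest of the 6 livers was SHH 31 for 5 members, Lum, Dcn, Bgn, Fmod and Prelp, and SHH 26 for 2, Ogn and Omd. Of all genes, 18.8% were highest in SHH 31 and 11.2% in SHH 26.

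Neighbouring members were compared with each other by the difference of their changes, a test added after the values had been seen. For 3 mice against 3, a two-sided exact permutation test cannot go below p = 0.1, and the 4 pairs were adjusted together. Omd and Ogn differed by -1.02 log2 units in their change, with no overlap between groups (exact p = 0.1, adjusted p = 0.2). Prelp and Fmod differed by 0.16, also without overlap (exact p = 0.1, adjusted p = 0.2). Dcn and Lum differed by -0.43 and Aspn and Omd by 0.71, each with overlapping groups (exact p = 0.3, adjusted p = 0.3). With that smallest p, no pair could pass 0.05, so these values are a description.

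Cell markers were read beside these values, because in whole liver fewer cells of a type and less RNA per cell cannot be told apart. For each list the mean log2 signal of its genes was taken in every mouse. It was 6.47 to 6.65 in GFP livers and 6.67 to 6.77 in SHH livers for 11 stellate cell genes, of which 9 had higher means. The 1 stellate cell gene with an unadjusted p under 0.05, the collectin Colec10, was named after its values were seen. It was at 6.86 to 7.16 in GFP and 7.36 to 7.83 in SHH livers (limma, adjusted p = 0.521). For 11 portal fibroblast genes the ranges overlapped, 4.67 to 4.80 in GFP and 4.72 to 4.93 in SHH livers, with 7 higher. They overlapped too for 8 smooth muscle and myofibroblast genes (5.02 to 5.10 against 4.97 to 5.04, 4 higher), for 8 mesothelial genes (5.47 to 5.58 against 5.39 to 5.58, 3 higher) and for 5 bile duct genes (3.97 to 4.15 against 3.98 to 4.19, 2 higher). None of these genes passed over all genes, and 1 bile duct gene, Cftr, lay below the lower quartile everywhere.

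Median differences were 0.65 for the macrophage, 0.75 for the neutrophil and 0.42 for the T and natural killer cell list, and 0.12 for the stellate cell list. Unadjusted p under 0.05 with higher SHH means was seen in 5 of 8 macrophage, 5 of 8 neutrophil and 2 of 7 T and natural killer cell genes. With lower means it was seen in 0 of each, where the shares of all genes were 3.33% higher and 4.01% lower. The mean of 8 Kupffer cell and macrophage genes, all 8 with higher SHH means, was 6.35, 6.31 and 7.27 in the GFP livers and 6.92, 7.03 and 7.93 in the SHH livers. SHH 31 was highest and GFP 6 the highest control, the same places that these livers held for Dcn, Bgn and Prelp. Of 7 T and natural killer cell genes 6 were higher, at 3.98 to 4.20 in GFP and 4.22 to 4.79 in SHH livers, and all 8 sinusoidal endothelial genes were lower, at 6.87 to 7.31 and 6.49 to 7.29. The part of any of these cells in the proteoglycan values was not tested.

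**Figure D3:**
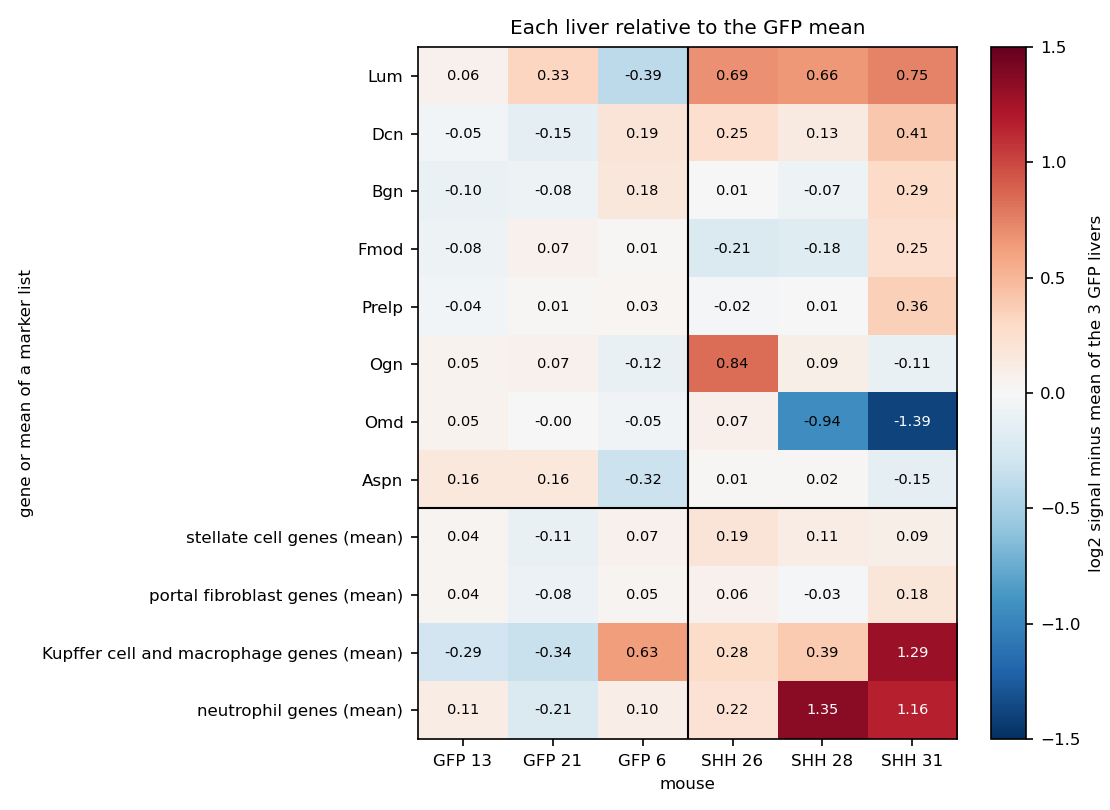
Log2 signal minus the mean of the 3 GFP livers, for the 8 genes (upper rows) and for the mean of 4 marker lists (lower rows), in each mouse (columns; GFP left, SHH right of the line; red above and blue below the GFP mean). Lum is red in all SHH livers, Omd blue in SHH 28 and SHH 31, Ogn red in SHH 26, and the neutrophil mean reddest in SHH 28 and SHH 31. The macrophage mean is red in all SHH livers and most so in SHH 31. It is also red in the control GFP 6, more so than in SHH 26 and SHH 28.

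The genes whose course over the 6 livers was most like that of a member were found by the root mean square difference of mean-centred log2 signals, among 10495 named genes above the median level. For Lum the nearest was Pdgfra, the PDGF receptor of fibroblasts and stellate cells, at a distance of 0.13. Pdgfra read 5.83, 5.99 and 5.69 in the GFP livers and 6.48, 6.50 and 6.55 in the SHH livers. Its order of mice was that of Lum among GFP livers but not among SHH livers. Tm4sf4, Il4ra and Jade2 followed at 0.14, 0.15 and 0.15, and no gene lay within 0.1. Jade2 differed most of these between groups, by 0.87, and Pdgfra by 0.67. Because these genes were picked for likeness to Lum over the same 6 arrays, group differences near that of Lum follow from the choice.

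For Dcn the nearest were Ly6k, Lrrk1, Arhgap10 and Tspear at 0.04 to 0.05, with 83 genes within 0.1. For Bgn they were Crtap, which encodes a collagen-modifying protein of the endoplasmic reticulum, Srek1, Cc2d2a and Stx2 at 0.03 to 0.04, with 204 genes within 0.1. Dcn and Bgn varied little, so many genes came as close. The measure rests on 6 arrays and describes likeness only.

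Of 9 further small leucine-rich proteoglycan genes measured, 3 had higher and 6 lower means, with a median of -0.13 and 0 past the threshold. Epyc, a class III gene of cartilage next to Kera, read 2.75, 2.95 and 3.43 in GFP and 2.44, 2.88 and 2.73 in SHH livers, a difference of -0.36 that was -0.17 without GFP 6 and -0.23 without SHH 26. All Epyc values but that of GFP 6 lay below the lower quartiles of their arrays. Nyx, known from the retina, differed by -0.30, or -0.18 without GFP 13, and the groups overlapped for both genes. The differences of the list ran from -0.36 to 0.16. Tsku was not analysed here.

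Of 24 other proteoglycan core protein genes, 12 had higher and 12 lower means, with 0 past the threshold and a median of 0.00. At an unadjusted p under 0.05, 4 were higher and 0 lower, where the shares of all genes were 3.33% and 4.01%. Each of the other related lists held at most 3 higher and at most 1 lower at that limit. Prg4, the lubricin gene, read 8.94, 8.81 and 8.52 in the GFP livers and 8.93, 10.62 and 9.95 in the SHH livers. SHH 26 was within the GFP range and the other SHH livers above it, with a difference of 1.08 (2.11-fold; limma, adjusted p = 0.576). With 1 mouse left out it ran from 0.68, without SHH 28, to 1.53, without SHH 26, and the adjusted p over all settings from 0.0634 to 0.862. Vcan, the large hyaluronan-binding versican, differed by 0.59 with SHH 31 highest at 3.67 and GFP 13 lowest at 2.42. The Vcan groups overlapped, and the difference was 0.40 without SHH 31. Its values in all GFP livers and in SHH 26 lay below the lower quartiles of their arrays. Srgn, the granule proteoglycan of blood cells, differed by 0.48, and was highest in SHH 31 at 6.50, without which the difference was 0.26. Gpc3, a membrane-anchored glypican, read 3.42 to 3.64 in GFP and 3.86 to 4.04 in SHH livers, a difference of 0.39 without overlap.

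The enzymes that build and sulfate the chains were read next. Of 20 linkage, chondroitin and dermatan sulfate genes measured, 16 had higher and 4 lower means, with a median of 0.07 and 0 past the threshold. Dse, the epimerase that turns chondroitin into dermatan sulfate, read 5.84 to 5.92 in GFP livers and 6.02 to 6.31 in SHH livers. The difference of 0.31 was without overlap (limma, adjusted p = 0.663). Ust, a uronyl sulfotransferase, differed by 0.43 and Chst13, which sulfates chondroitin, by 0.24, or 0.14 without SHH 31. Csgalnact1, which starts the chondroitin chain, differed by -0.39, at 3.94 to 4.17 in GFP and 3.46 to 3.88 in SHH livers, without overlap. Among 7 keratan sulfate enzymes 3 were higher and 4 lower, with a median of -0.00. The sulfotransferase Chst2 differed by -0.23 without overlap, and the galactosyltransferase B4galt1 by 0.30, with SHH 28 highest at 8.51 and a difference of 0.0729 without it. The chondroitin list held 1 gene below the lower quartile of every array, Chst7, and Chpf2 and Chst15 were not analysed here.

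Fibrillar collagens and other binding partners of the core proteins gave 10 higher and 7 lower means of 17, a median of 0.11 and 0 past the threshold. Col14a1, a fibril-associated collagen that decorin binds, read 6.92 to 7.15 in GFP livers and 7.79, 7.23 and 7.61 in the SHH livers. Its difference of 0.52 was without overlap (limma, adjusted p = 0.556). Fn1, fibronectin, differed by 0.34, also without overlap, and Col6a3 by 0.30 with overlap, or 0.17 without GFP 21. Col1a1 differed by 0.48, with SHH 31 at 6.47 and the other SHH livers at 5.71 and 5.55 against 5.22 to 5.54 in GFP livers, and the difference was 0.20 without SHH 31. Lum was thus even across the SHH livers, spanning 0.09, where Col1a1 was highest in SHH 31; whether the genes differ in this was not tested.

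Of 14 protease genes 10 had higher and 4 lower means, with a median of 0.10 and 0 past the threshold. Mmp14, the membrane collagenase, read 6.43 to 6.83 in GFP livers and 6.77, 7.61 and 7.47 in the SHH livers, a difference of 0.67. Mmp2, which Mmp14 activates, differed by 0.28 without overlap. Tll1, a procollagen protease, differed by -0.31 and by -0.13 without GFP 6, and Mmp3 by -0.45 at a level below the lower quartile of every array.

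Of 19 receptors and ligands reported to bind the core proteins, 14 were higher and 5 lower, with a median of 0.11 and 0 past the threshold. Itgam, an integrin chain of myeloid cells, read 3.98 to 4.18 in GFP livers and 4.46, 5.04 and 5.21 in the SHH livers. Its difference of 0.84 had adjusted p = 0.409 in limma, and without SHH 26 it passed at 1.06 (adjusted p = 0.0499), the 1 gene of the 7 related lists to do so in a setting tried. Of the 8 neutrophil marker genes, Retnlg, S100a8 and S100a9 passed in that setting too, and the others did not. Over all 22180 genes, 46 passed without SHH 26. Cd44, the hyaluronan receptor, differed by 0.76 without overlap, and Igf1r, the IGF receptor, by 0.34 without overlap. Erbb4, a receptor of the EGF family, differed by -0.76, with 4.93 and 4.95 in SHH 28 and SHH 31 and 6.01 in SHH 26, against 5.37 to 6.47 in GFP livers. SHH 26 had the lowest Itgam, Cd44 and neutrophil mean of the SHH livers, and the part of those cells was not tested. Loxl2, of the collagen list, and Myoc, of the receptor list, were not analysed here.

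**Figure D4:**
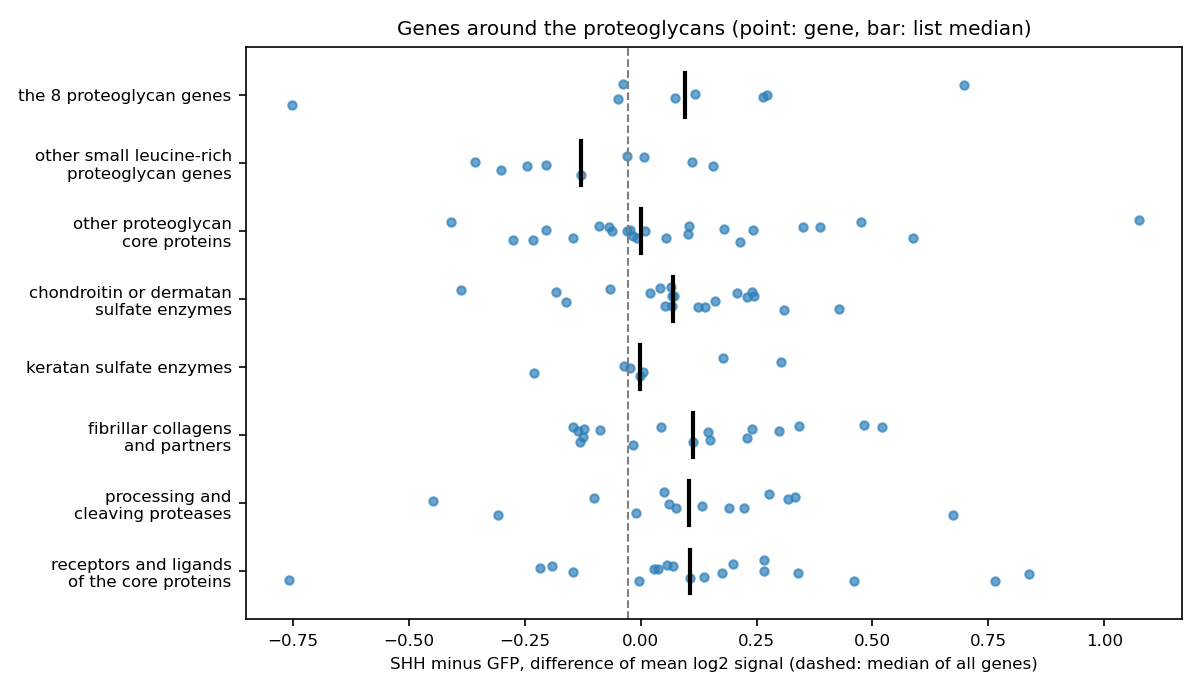
Difference of mean log2 signal between SHH and GFP livers (horizontal axis) for every measured gene (points, spread vertically for sight only) of the 8 proteoglycan genes and 7 related lists, with each list's median as a black bar and the median of all genes, -0.03, as a dashed line. Lum at 0.70 and Omd at -0.75 are the ends of the top row, and the medians of the lists lie between -0.13 and 0.11.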

How the data were processed

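The deposited values are log2 signals made by the authors with RMA, per the submitters' processing notes; RMA corrects background, equalises the arrays' distributions and summarises probes into probe sets. Log2 was read from the range of the values. Neither a version nor the annotation behind the values is given in the sources used here. Precision is limited by the number of arrays. Of 41345 probe sets, 23521 named 1 gene in the platform annotation, 1814 several and 16010 none here. Symbols checked against RefSeq (GRCm38.p6) changed in 0 cases.

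The comparison of SHH with GFP livers used lmFit and eBayes of limma 3.58.1 (R 4.3.3), two-sided and without covariate or level filter, with Benjamini-Hochberg adjustment over 22180 genes and a threshold of 0.05. Spreads are SD over 3 mice, and p-values measure the spread between mice. Folds were taken from log2 differences, and arrays understate changes of dim genes. The limma fit, but not the other steps, was tested on simulated data. The members and lists were chosen with earlier results of these data known. The text names the members, up to 4 genes per related list by smallest unadjusted p, and the 4 nearest genes of Lum, Dcn and Bgn; marker lists are given by counts and ranges, with up to 3 genes in list order, and names outside this rule are marked or complete a count. The alternatives were the mean of a gene's probe sets, the probe set of largest interquartile range, every probe set on its own, array weights, a trended prior, a robust prior, arrays shifted to equal medians, renewed quantile normalization, a limit to genes above the median level, and each mouse left out. With every probe set on its own, a gene was followed at its main probe set, so its difference could not move.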

Additional observations from a re-analysis of the deposited data

How the results depend on the processing

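No alternative placed a proteoglycan gene past the threshold, and with 1 mouse left out the count of such genes was 0 to 0. Over all genes the count was 0 in each setting except without SHH 26, so that it ran from 0 to 46 with 1 mouse left out. The median difference of the 8 genes ran from 0.01 to 0.16 with 1 mouse left out and from 0.05 to 0.12 in the other settings. Fmod turned to 0.0635 with the mean of all probe sets, and Aspn to 0.0403 with array weights. With 1 mouse left out, Bgn ran from -0.0345 to 0.161, Prelp from -0.00309 to 0.184, Ogn from -0.0098 to 0.463, Fmod from -0.196 to 0.035, Aspn from -0.199 to 0.0416, Crtap from -0.00834 to 0.2001, Srek1 from -0.025 to 0.143, Cc2d2a from -0.01998 to 0.1802 and Stx2 from -0.0376 to 0.144. Of 44 genes tracked, 9 turned sign with 1 mouse left out and 2 in another setting. The causes were not tested. Only genes above the median level could not include Ogn and Aspn. No paired analysis was possible because the groups share no mouse number.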
